A study of Homo sapiens with 6 samples.

Results

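Transcript levels were compared in MDA-MB-231, a human breast cancer line of the triple-negative kind with mutant p53, after lipid transfection of 1 of 3 small interfering RNAs (siRNAs). The comparison described here sets both knockdowns against the control: the 2 arrays of cells given siATM, directed at ATM, and the 2 arrays of cells given sip53, directed at p53, were pooled with equal weight and compared with the 2 arrays of cells given the control siRNA siNC. All 6 arrays of the series enter it, and all 6 carry the same cell line, medium and transfection step. The subject is the common part of the responses, which is the set of genes whose 4 knockdown arrays all lie above, or all below, both siNC arrays. Of 14884 genes with a symbol, 3416 met that rule, 1809 of them higher and 1607 lower. The labels name no siRNA sequence and are silent on whether the pair of arrays in a group stems from separate cultures. The p-values below therefore measure the spread between these arrays, and that spread may be technical. The transcripts of the 2 targeted genes, and with them the depth of each knockdown, are not analysed here.

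ATM is a kinase activated by broken DNA, and 1 of its substrates is the transcription factor p53. ATM also carries the signal from damaged DNA to NF-kB, the transcription factor family that drives inflammatory chemokines, and mutant p53 proteins are known to alter NF-kB signalling in tumour cells. Small interfering RNAs act through the cell's own RNA interference machinery, and any duplex can lower transcripts other than its target through short seed matches, which is why a control siRNA is used.

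Both knockdown groups share the same 2 siNC arrays. A response common to siATM and sip53 therefore cannot be told apart here from a property of the siNC siRNA or of its 2 arrays. The difference between siATM and sip53 does not use the siNC values, so it is the measure by which members of the common part were tested. Its standard error does draw on the siNC arrays, through the spread shared by the fit. The rule that chose the members used the same siATM and sip53 values, so this test is not independent of it.

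Values are log2 intensities, 1 per probe set, and 1 probe set per gene was used. Median log2 values of the arrays lay between 5.95 and 5.98. Genes with a mean log2 value of at least 5.96 were tested, which kept 10640 genes. Over these genes, differences within a pair of same-group arrays had an SD of 0.115 to 0.148, against 0.205 to 0.291 for arrays from 2 groups. The cell line label was checked against markers. The mesenchymal-type genes VIM, FN1, AXL and MSN had siNC means of 11.62, 12.44, 12.65 and 12.67. The transcriptional repressor gene ZEB1, of the same list, was at 8.64. Of the 10 luminal markers with a symbol, ESR1, the oestrogen receptor gene, was the 1 below the tested range with a siNC mean of 5.77, while the keratins KRT18 and KRT19 were at 11.77 and 10.51. Markers of both kinds were therefore present, and presence alone does not set 1 kind apart. Their levels differed. Among all genes with a symbol, the median percentile rank was 98.3 for the 7 mesenchymal markers and 69.3 for the 10 luminal ones.

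Of the 10640 tested genes, 1549 had all 4 knockdown arrays above both siNC arrays, which is 14.6% of those tested, and 1237 had all 4 below, which is 11.6%. These shares are the background set beside each gene list. The lists were chosen with earlier results of these data known. A list share above the background is therefore a description and no separate support. The rule asks for no minimum distance, and with a gap of at least 0.1 log2 between the nearest knockdown and siNC arrays 4.77% were above and 3.88% below. Counts of list members are given again under that gap, under a stricter filter (mean log2 of at least 7.22, which tests fewer genes), with median-centred arrays or without 1 array where they move by over 1.5 times and are 3 or more. In the pooled contrast (the mean of the siATM and sip53 group means minus the siNC mean, limma, adjusted p below 0.05), 708 genes or 6.65% were called higher and 737 or 6.93% lower. With each array centred on its median over tested genes the split moved to 569 higher and 918 lower, or 38.3% higher against 49.0%, so the share of each direction moves with the scaling. The common part and the pooled call use the same values, so the call describes the members and is no separate support for them.

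In the common part, 594 genes were called higher and 531 lower, and the other 320 called genes did not have all 4 knockdown arrays on 1 side of both siNC arrays. Most of the shared changes were small. The median size of the 1125 called differences was 0.32 on the log2 scale, against 0.09 over all tested genes, and a change of 1.5-fold or more was seen in 49 higher and 54 lower genes. Of the 94 named genes that lie in the common part, the difference from siNC passed limma's threshold in 85 for siATM alone and in 66 for sip53 alone. At the edge of the rule, MSL1 lay inside by 3e-05 on the log2 scale and TRIM69 lay outside because 1 sip53 array equalled 1 siNC array. Each siNC array carries more weight in the pooled contrast than each knockdown array, so its removal affects the count more by design. The siNC arrays decide much of the count: without siNC replicate 1 the pooled contrast called 341 genes and without siNC replicate 2 it called 426, while it called 760 without sip53 replicate 1 and 699 without sip53 replicate 2. Of the 1125 called members, 246 kept the call whichever array was left out.

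Although these genes moved the same way, many did not move by the same amount. Between siATM and sip53, 30.3% of all tested genes differed (limma, adjusted p below 0.05), and of the 2786 tested genes of the common part 587 or 21.1% did. Of the 1125 called members, 496 or 44.1% did, but the call and this test share the same residual variance, so nothing is read from that share. The rule also leaves out genes that moved in opposite directions, of which 84.8% and 86.3% were called different. The 21.1% is therefore lowered by the rule itself, and nothing is read from its distance to the 30.3%. In 361 of the 496 the siATM arrays lay farther from siNC, 180 of them among the higher and 181 among the lower genes. In the other 135 the sip53 arrays lay farther, 55 higher and 80 lower. Over all tested genes, siATM arrays also differed more from siNC arrays (SD 0.263 to 0.270) than sip53 arrays did (0.205 to 0.209). The imbalance is therefore not read as particular to the common part. A difference was not called for 629 members, which does not show that the 2 siRNAs acted alike on them.

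**Figure D1:**
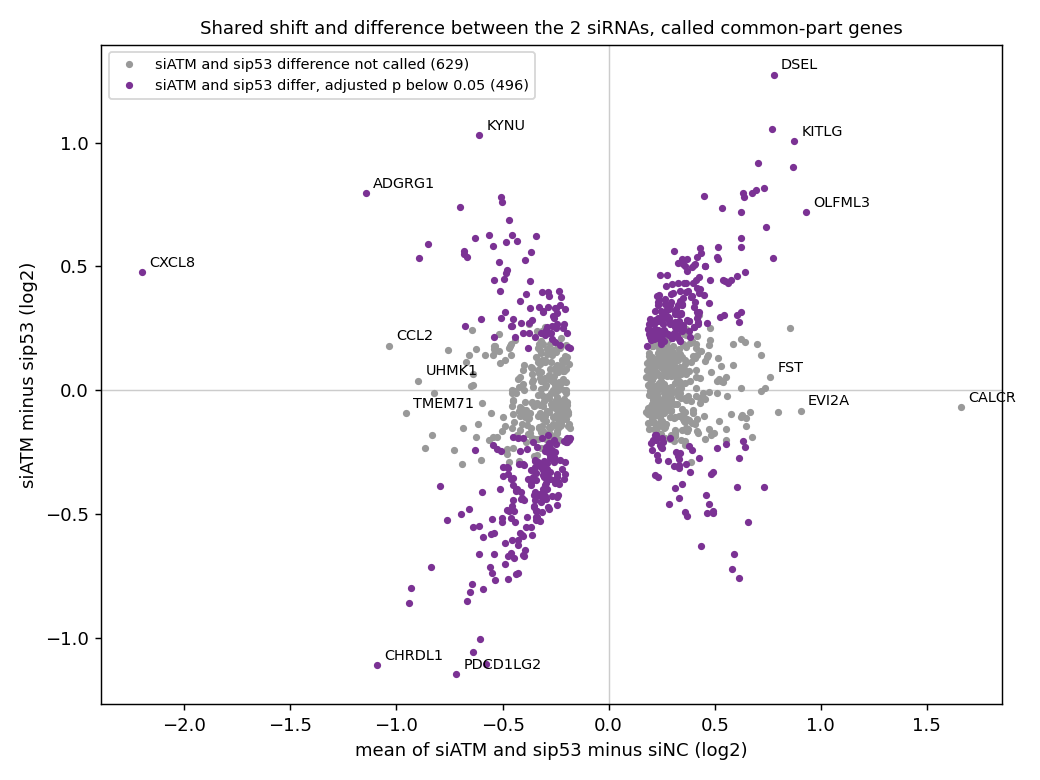
Each point is 1 of the 1125 called genes of the common part; the x axis is the pooled difference from siNC and the y axis the siATM minus sip53 difference, both in log2. Genes near the horizontal zero line, such as CALCR, EVI2A, FST, TMEM71 and UHMK1, had near-equal values with both siRNAs, while DSEL at 1.28 and PDCD1LG2 at −1.15 lie farthest from it.

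Some genes changed by nearly the same amount with either siRNA. When the 4 knockdown arrays were fitted as 1 group, so that any gap between siATM and sip53 counts as spread, 11 genes were called (1299 at an unadjusted p below 0.05): 7 higher and 4 lower. That fit picks shifts that are large against the spread, not equal ones, and CXCL8 passed it with a called gap between the siRNAs. The 11 are therefore no count of the genes that changed equally. CALCR, the calcitonin receptor, stood at 6.51 and 6.45 on the siNC arrays, 8.14 and 8.07 on the siATM arrays and 8.15 and 8.19 on the sip53 arrays, in log2. All 4 knockdown arrays sat within a narrow band far above both controls. Its pooled difference was 1.66 (SE 0.05, adjusted p = 2.16e-05), a 3.16-fold rise, and siATM and sip53 differed by −0.07 (95% interval −0.21 to 0.07).

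EVI2A, a membrane protein gene that lies inside an intron of NF1, read 8.42 and 8.48 with siNC, 9.42 and 9.20 with siATM, and 9.39 and 9.40 with sip53. AQP5, a water channel, read 8.48 and 8.37 with siNC, 9.24 and 9.11 with siATM, and 9.27 and 9.26 with sip53. FST, the secreted antagonist of activins follistatin, went from 8.67 and 8.59 to 9.39 and 9.45 with siATM and 9.39 and 9.35 with sip53. In these 3 genes the siATM and sip53 arrays lay side by side or interleaved, above both controls. The pooled differences were 0.91 for EVI2A, 0.80 for AQP5 and 0.76 for FST, and the intervals of siATM minus sip53 ran from −0.27 to 0.11, −0.25 to 0.08 and −0.09 to 0.19. TMEM144 (0.72 with siATM and 0.72 with sip53) and the homeobox factor gene IRX3 (0.63 with siATM and 0.62 with sip53), named because it is among the 11, completed the protein-coding genes on the higher side, and the microRNA gene MIR27B was the seventh.

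On the lower side CXCL8, which encodes the neutrophil chemokine interleukin 8, had the largest change among the named genes. It fell from 8.11 and 7.98 on the siNC arrays to 6.12 and 6.05 with siATM and 5.68 and 5.54 with sip53, a pooled difference of −2.20 (SE 0.06, adjusted p = 2.16e-05). Both sip53 arrays were lower than both siATM arrays, and that gap of 0.48 was itself called (adjusted p = 0.00329, limma). CCL2, the monocyte chemokine, had siNC values of 7.67 and 7.69, siATM values of 6.86 and 6.61 and sip53 values of 6.62 and 6.48. Here the siATM and sip53 arrays overlapped, and the pooled difference was −1.04 with an interval of siATM minus sip53 from −0.04 to 0.40.

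TMEM71, a membrane protein gene, read 8.01 and 7.996 with siNC, 7.01 and 6.99 with siATM, and 7.13 and 7.06 with sip53. UHMK1, a serine/threonine kinase that binds splicing factors, read 10.19 and 10.11 with siNC, 9.31 and 9.24 with siATM, and 9.28 and 9.19 with sip53. Both fell by nearly 1 log2 unit with each siRNA, by 0.96 and 0.90 in the pooled contrast.

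**Figure D2:**
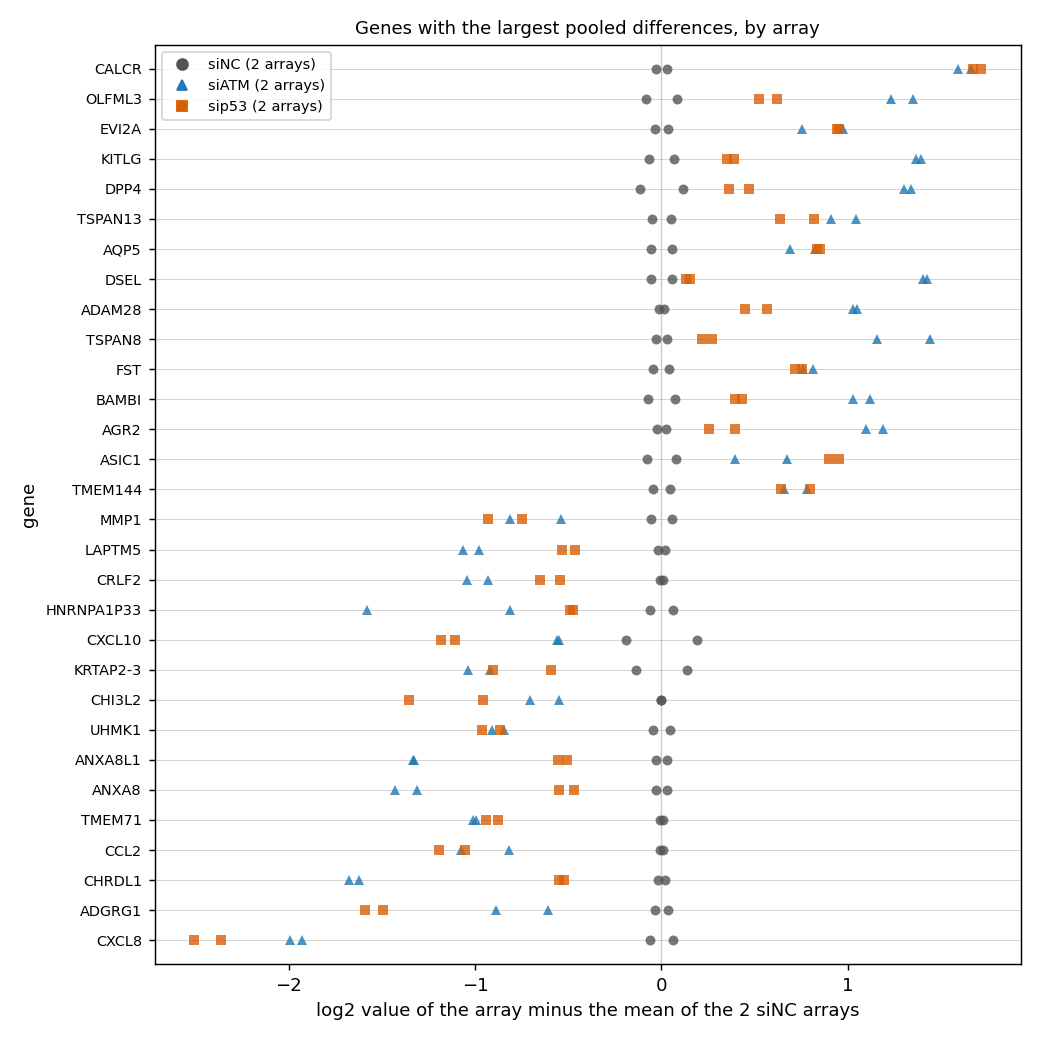
Log2 values of the 15 highest and 15 lowest called genes of the common part, each array shown as 1 point relative to the mean of the 2 siNC arrays (grey circles), with siATM arrays as blue triangles and sip53 arrays as orange squares. All 4 knockdown points lie on 1 side of both grey points in every row; they cluster in CALCR, FST, TMEM71 and UHMK1 and separate by siRNA in DSEL, TSPAN8, KITLG and CHRDL1.

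Other genes of the common part moved in the same direction but much farther with 1 siRNA. KITLG, the ligand of the KIT receptor, read 7.80 and 7.93 with siNC, 9.26 and 9.23 with siATM, and 8.22 and 8.26 with sip53. DSEL, an epimerase of dermatan sulphate chains, read 8.19 and 8.30 with siNC, 9.67 and 9.65 with siATM, and 8.40 and 8.38 with sip53, so its sip53 arrays only just cleared the controls. TSPAN8, a tetraspanin, read 5.66 and 5.59 with siNC, 7.07 and 6.78 with siATM, and 5.90 and 5.84 with sip53. These 3 genes differed between siATM and sip53 by 1.01, 1.28 and 1.06 (limma, adjusted p = 0.000231, 9.77e-05 and 0.000469), and their pooled difference is largely that of siATM. The secreted OLFML3 (1.29 with siATM and 0.57 with sip53), the peptidase DPP4 (1.32 with siATM and 0.42 with sip53), the metalloprotease ADAM28 (1.04 with siATM and 0.51 with sip53) and AGR2, an isomerase of the endoplasmic reticulum (1.14 with siATM and 0.32 with sip53), were ordered the same way. The acid-sensing channel ASIC1 was higher by 0.53 with siATM and 0.93 with sip53, and the tetraspanin TSPAN13 by 0.98 with siATM and 0.73 with sip53.

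Among the lower genes, CHRDL1, a secreted BMP antagonist, read 7.63 and 7.67 with siNC, 6.03 and 5.97 with siATM, and 7.10 and 7.13 with sip53. ADGRG1, an adhesion receptor of the G protein-coupled class, had the opposite order, with 10.02 and 10.09 for siNC, 9.17 and 9.45 for siATM and 8.47 and 8.56 for sip53. CHRDL1 fell farther with siATM and ADGRG1 farther with sip53, by 1.11 and 0.80 log2 units (limma, adjusted p = 9.77e-05 and 0.00115). GPR3 (−1.13 with siATM and −0.02 with sip53) and CRISPLD2 (−1.17 with siATM and −0.11 with sip53) lay farther from siNC with siATM, and KYNU, which breaks down kynurenine, lay farther with sip53 (−0.09 with siATM and −1.12 with sip53).

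The annexin genes ANXA8 and ANXA8L1 were lower by 0.94 and 0.93 in the pooled contrast, but they are near-identical copies and may be 1 signal. CHI3L2, a chitinase-like secreted protein, was at −0.63 with siATM and −1.16 with sip53, the thymic stromal lymphopoietin receptor gene CRLF2 at −0.99 with siATM and −0.60 with sip53, the lysosomal membrane protein gene LAPTM5 at −1.02 with siATM and −0.50 with sip53 and KRTAP2-3, of the keratin-associated family, at −0.98 with siATM and −0.75 with sip53. The pseudogene HNRNPA1P33, whose probe set can share sequence with other copies, was at −0.84 (SE 0.18), with siATM arrays at 6.57 and 5.81. Of the 30 genes named for size it was the 1 whose call did not survive each left-out array, and was lost for HNRNPA1P33 without siNC replicate 1 or 2 or sip53 replicate 1 or 2 (adjusted p up to 0.15).

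More chemokine and cytokine genes lay below than above the controls. Of 20 chemokine and cytokine genes tested, 11 lay below both controls on all 4 knockdown arrays (55.0% against the 11.6% of all tested genes) and 1 above. The pooled contrast called 10 lower, 9 of them in the common part, and 0 higher (0 at an unadjusted p below 0.05, limma). The median pooled difference over the list was −0.25, against 0.01 over all tested genes. The count of called genes fell to 4 to 6 without siNC replicate 1 or 2 or sip53 replicate 2, and the 11 below both controls became 7 with the gap of 0.1 and 4 with the stricter filter. CXCL10, which attracts activated T cells, read 7.74 and 7.36 with siNC, 6.99 and 7.002 with siATM, and 6.37 and 6.44 with sip53, with a siNC SD of 0.27. CXCL11, a ligand of the same receptor, read 8.08 and 7.81 with siNC, 7.25 and 7.38 with siATM, and 7.35 and 7.24 with sip53. All 4 knockdown arrays were below both controls in both genes. CXCL11 fell by similar amounts, −0.63 with siATM and −0.65 with sip53, whereas CXCL10 fell farther with sip53 (−0.55 with siATM and −1.15 with sip53).

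Promoter sequence was read for the chemokine genes because many of them carry a binding motif of NF-kB close to the start. The sequences come from RefSeq, build GRCh38.p14, and the 150 bases before the gene's start are shown 5′ to 3′ on the gene's strand. Capitals mark matches to the NF-kB words GGAANTTCC or GGGANTTCC and to the AP-1 word TGANTCA, searched on both strands. The stretches are chr4:73740419-73740568 on the plus strand for CXCL8, chr4:76023498-76023647 on the minus strand for CXCL10, chr4:76036071-76036220 on the minus strand for CXCL11 and chr1:100719592-100719741 on the plus strand for VCAM1, the endothelial adhesion molecule.
CXCL8: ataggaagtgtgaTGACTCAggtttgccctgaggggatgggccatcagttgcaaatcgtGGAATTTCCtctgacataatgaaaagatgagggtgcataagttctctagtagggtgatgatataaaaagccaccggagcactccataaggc
CXCL10: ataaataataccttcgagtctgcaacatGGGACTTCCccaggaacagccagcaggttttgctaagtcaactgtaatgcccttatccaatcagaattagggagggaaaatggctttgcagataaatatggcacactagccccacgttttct
CXCL11: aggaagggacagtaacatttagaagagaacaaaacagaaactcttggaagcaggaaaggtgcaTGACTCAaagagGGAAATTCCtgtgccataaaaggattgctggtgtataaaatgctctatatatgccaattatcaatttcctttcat
VCAM1: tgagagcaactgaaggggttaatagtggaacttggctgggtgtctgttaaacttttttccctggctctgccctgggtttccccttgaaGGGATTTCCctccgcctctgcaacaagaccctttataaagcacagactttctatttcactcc
In CXCL8 an NF-kB word begins 91 bases and an AP-1 word 137 bases before the start. In CXCL11 the pair begins 75 and 87 bases before it. CXCL10 holds an NF-kB word 122 bases before the start and another at 176, outside the stretch shown, and VCAM1 holds 1 at 62.

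Over the 250 bases before the start, an NF-kB word was present in 3 of the 6 chemokine and cytokine genes of the common lower part that the promoter table holds, and in 4 of 7 members of the NF-kB list. Over all 27305 promoters of the table the share was 2.4%, and over tested genes 2.7%. Over the called lower genes of the common part it was 3.54%, or 15 of 424, and over the called higher genes 1.69%, or 8 of 472. AP-1 words stood in 4.48% and 4.24% of these, against 4.35% of tested genes and 6.6% of all promoters. The list of NF-kB targets was drawn from genes known to carry such sites, and many chemokine genes carry them too. Members of both lists outside the common lower part were not counted, so nothing about the response is read from these shares. A match is a description of these letters only. Among the common lower members of both lists, CCL26, IL24, IL32, BIRC2, TNIP1 and TRAF1 held no NF-kB word. CCL2, CSF3, CXCL16, IL18 and LIF have no promoter there and were not searched.

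The NF-kB list, which holds subunits, regulators and classical targets of the factor, was on the lower side too. Of 14 tested, 7 lay below both controls on all 4 knockdown arrays and 0 above, and limma called 5 lower and 0 higher (0 at an unadjusted p below 0.05), with a median of −0.20. The number called lower was 1 to 3 without siNC replicate 1 or 2 or sip53 replicate 1 or 2, and the 7 below both controls became 1 with the gap of 0.1. ICAM1, a leukocyte adhesion molecule, read 11.14 and 11.24 with siNC, 11.11 and 11.02 with siATM, and 10.37 and 10.39 with sip53, and siATM and sip53 differed by 0.69 (limma, adjusted p = 0.000505). Its fall came mainly from the sip53 arrays. The adaptor TRAF1 (−0.36 with siATM and −0.31 with sip53), VCAM1 (−0.44 with siATM and −0.20 with sip53) and CFLAR, an inhibitor of caspase 8 (−0.21 with siATM and −0.36 with sip53), were the other called members of the common part. These calls were lost for TRAF1 without siNC replicate 1 or 2 (adjusted p up to 0.0756), VCAM1 without any 1 array other than siNC replicate 2 (adjusted p up to 0.169) and CFLAR without siNC replicate 1 or 2 or sip53 replicate 1 or 2 (adjusted p up to 0.177).

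Few interferon-stimulated genes lay in the common part. Of 31 tested, 2 lay above and 2 below both controls on all 4 arrays, both shares below the background. The pooled contrast called 8 lower and 1 higher, and the list's median was −0.18 with siATM and 0.04 with sip53. XAF1 (−0.40 with siATM and −0.25 with sip53) and IFI35 (0.40 with siATM and 0.17 with sip53) were the 2 called members in the common part, named because they are the only 2. The count called lower was 0 to 4 without siNC replicate 1 or 2 or sip53 replicate 1 or 2, and calls were lost for XAF1 without siNC replicate 1 or 2 (adjusted p up to 0.104) and IFI35 without siNC replicate 1 or 2 or sip53 replicate 2 (adjusted p up to 0.128).

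Mitotic genes were lower in the pooled contrast, with larger differences after siATM than after sip53. Of 29 G2/M and mitosis genes tested, 16 lay below both controls on all 4 knockdown arrays (55.2%) and 0 above, and limma called 23 lower and 0 higher (0 at an unadjusted p below 0.05). The list's median difference from siNC was −0.54 with siATM and −0.06 with sip53, and 24 of its 29 genes differed between the 2 siRNAs. PTTG1, the securin, read 8.27 and 8.36 with siNC, 7.33 and 7.11 with siATM, and 8.08 and 8.06 with sip53. NEK2, a centrosome kinase, read 10.01 and 10.06 with siNC, 8.96 and 8.90 with siATM, and 9.95 and 9.93 with sip53. CENPA, the centromeric histone, was instead at −0.53 with siATM and −0.38 with sip53, and KIF11, the kinesin that separates spindle poles, at −0.51 with siATM and −0.38 with sip53. For CENPA and KIF11 siATM minus sip53 was −0.15 (−0.30 to −0.01) and −0.13 (−0.32 to 0.07). The 16 genes below both controls became 6 with the gap of 0.1. The number of G2/M genes called lower was 7 to 15 without siNC replicate 1 or 2 or sip53 replicate 2, and the call of KIF11 was lost without siNC replicate 1 or 2 (adjusted p up to 0.0847).

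Of 25 G1/S and DNA replication genes, 5 lay below both controls on all 4 arrays (20.0%) and 0 above, and limma called 13 lower in the pooled contrast and 0 higher (0 at an unadjusted p below 0.05). The medians were −0.48 with siATM and 0.06 with sip53, and 23 of 25 differed between the siRNAs. The shared members were led by TYMS, thymidylate synthase (−0.76 with siATM and −0.24 with sip53), RRM1, the large subunit of ribonucleotide reductase (−0.34 with siATM and −0.28 with sip53), GINS3 of the replicative helicase (−0.48 with siATM and −0.14 with sip53) and the transcription factor E2F1 (−0.39 with siATM and −0.17 with sip53). The 5 became 3 with the gap of 0.1, 8 with median-centred arrays and 9 without siNC replicate 2. Leaving out 1 array changed the count called lower to 2 to 7 without siNC replicate 1 or 2 or sip53 replicate 1 or 2, and ended the calls of RRM1 and GINS3 without siNC replicate 1 or 2 (adjusted p up to 0.0987 and 0.102) and E2F1 without siNC replicate 1 or 2 or sip53 replicate 1 (adjusted p up to 0.115).

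Regulators of the cell cycle lay in the common part at shares near the background. Of 12 CDK inhibitor, D-type cyclin and pocket protein genes, 2 (16.7%) lay above and 1 (8.33%) below both controls on all 4 arrays. Over all tested genes the shares were 14.6% and 11.6%. The pooled contrast called 2 of the 12 higher and 3 lower. Of the pocket proteins, which hold E2F factors in check, RBL1 was lower (−0.51 with siATM and −0.19 with sip53) and RBL2 higher (0.26 with siATM and 0.15 with sip53), and the cyclin gene CCND3 was higher (0.23 with siATM and 0.14 with sip53). Each of these 3 calls was lost on leaving out 1 array: RBL1 without siNC replicate 1 (adjusted p up to 0.0639), RBL2 without any 1 array other than siATM replicate 2 (adjusted p up to 0.236) and CCND3 without any 1 array (adjusted p up to 0.195). With the arrays centred on their medians, or with the replicate number as a block, RBL2 and CCND3 were no longer called. The count called lower was 0 to 1 without siNC replicate 1 or 2 or sip53 replicate 1 or 2.

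Among the 20 genes of the p53 target list, 2 were called higher and 2 lower, and the list's median was −0.001 (2 genes above and 3 below both controls on all 4 arrays). CD82, a tetraspanin, was lower at −0.67 with siATM and −0.23 with sip53. The kinase gene PLK2 was higher at 0.39 with siATM and 0.27 with sip53, and BBC3, which encodes the BH3-only protein PUMA, was higher at 0.46 with siATM and 0.12 with sip53. The calls were lost for PLK2 without siNC replicate 2 (adjusted p up to 0.0887) and BBC3 without siNC replicate 1 or 2 or sip53 replicate 1 or 2 (adjusted p up to 0.171). BBC3 also lost its call with median-centred arrays, and the 3 genes below both controls became 1 with the gap of 0.1. Of 20 genes of DNA damage signalling and repair, 3 were called lower, of which RAD54L (−0.76 with siATM and −0.15 with sip53), a motor protein of recombination, was the only 1 in the common part. The count of 3 became 0 to 5 without siNC replicate 1 or 2 or siATM replicate 1, and a call was lost for RAD54L without siNC replicate 1 (adjusted p up to 0.0557).

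Genes of the TGF-beta and BMP pathways lay on both sides of the controls. Of the inhibitors among the called members, CHRDL1 was lower and the others were higher. These pathways signal from serine/threonine kinase receptors through SMAD proteins to the nucleus, and induce their own inhibitors. Of 22 genes tested, 8 lay above (36.4%) and 6 below (27.3%) both controls on all 4 arrays, and 6 were called higher and 4 lower, all 10 in the common part. The 8 became 5 with the gap of 0.1. BAMBI, a decoy receptor, read 8.79 and 8.64 with siNC, 9.83 and 9.74 with siATM, and 9.11 and 9.15 with sip53. SMAD6, an inhibitory SMAD, read 6.85 and 6.87 with siNC, 7.91 and 7.58 with siATM, and 7.29 and 7.24 with sip53. In both genes the siATM arrays were the higher pair, by 0.66 and 0.48 over sip53 (limma, adjusted p = 0.000777 and 0.0113). FST, described above, was the member with near-equal values. The second inhibitory SMAD, SMAD7, was at 0.62 with siATM and 0.21 with sip53, the ligand BMP4 at 0.25 with siATM and 0.34 with sip53 and the SMAD repressor SKIL at 0.08 with siATM and 0.33 with sip53. Lower were CHRDL1, the shared mediator SMAD4 (−0.31 with siATM and −0.60 with sip53), the receptor-regulated SMAD2 (−0.40 with siATM and −0.11 with sip53) and the matrix protein gene CCN2 (−0.27 with siATM and −0.41 with sip53). SMAD7, BMP4, SKIL, SMAD4, SMAD2 and CCN2 are outside the rule for named genes and were chosen after their values were seen, to complete the 10. The counts were 3 without siNC replicate 1 for higher and 2 without siNC replicate 1 or 2 for lower, and leaving out 1 array ended the calls of SMAD6 without siNC replicate 1 (adjusted p up to 0.0519), BMP4 and CCN2 without siNC replicate 1 or 2 (adjusted p up to 0.0883 and 0.0963), SKIL without any 1 array (adjusted p up to 0.23) and SMAD2 without siNC replicate 1 or 2 or sip53 replicate 1 or 2 (adjusted p up to 0.196).

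More genes of the Notch and WNT list lay above than below the controls. Of 30 Notch and WNT pathway genes tested, 11 lay above (36.7% against 14.6%) and 3 below both controls on all 4 knockdown arrays, and 10 were called higher, all of them in the common part, and 1 lower. The median pooled difference over the list was 0.05. LGR4, a receptor for R-spondins, read 9.88 and 9.90 with siNC, 10.97 and 10.86 with siATM, and 10.15 and 10.12 with sip53. FZD7, a WNT receptor, read 9.84 and 9.76 with siNC, 10.20 and 10.27 with siATM, and 10.24 and 10.30 with sip53. RNF43, the ubiquitin ligase that removes WNT receptors from the surface, read 7.69 and 7.73 with siNC, 8.12 and 8.19 with siATM, and 8.22 and 8.11 with sip53. LGR4 was higher mainly with siATM, while FZD7 and RNF43 had near-equal differences, with siATM minus sip53 at −0.04 (−0.18 to 0.11) and −0.01 (−0.16 to 0.14). LFNG, which modifies Notch receptors, was higher at 0.24 with siATM and 0.70 with sip53. The 11 above became 7 with the gap of 0.1, and the 3 below became 1 with the gap of 0.1, 5 without siNC replicate 1 and 5 without siATM replicate 1. The count called higher was 5 to 6 without siNC replicate 1 or 2 or sip53 replicate 2, and LFNG lost its call without siNC replicate 1 or 2 (adjusted p up to 0.0757).

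Of 35 growth factor and receptor kinase genes tested, 10 lay above (28.6%) and 3 below both controls on all 4 arrays, and 7 were called higher and 2 lower. After KITLG, the largest shared member was the ligand EGF, which was lower and read 6.73 and 6.71 with siNC, 6.24 and 6.29 with siATM, and 6.11 and 6.10 with sip53. The insulin-like growth factor receptor gene IGF1R was higher at 0.51 with siATM and 0.36 with sip53, and NRG1, neuregulin, at 0.28 with siATM and 0.38 with sip53. The 10 above became 6 with the gap of 0.1, and the 3 below became 1 with the gap of 0.1 and 1 with the stricter filter. Leaving out 1 array, the count called higher was 2 without siNC replicate 1 or 2, and the calls were lost for IGF1R without siNC replicate 1 (adjusted p up to 0.0668) and NRG1 without siNC replicate 2 (adjusted p up to 0.0662).

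Of 24 G protein-coupled receptors and regulators, 10 lay above (41.7%) and 4 below both controls on all 4 arrays, and 5 were called higher and 3 lower. Beside CALCR and ADGRG1, the adhesion receptor ADGRL2 read 8.05 and 7.98 with siNC, 8.57 and 8.53 with siATM, and 8.75 and 8.76 with sip53. It was higher by a pooled 0.64, with the sip53 pair on top. ACKR3, a scavenging receptor of the chemokine CXCL12, was at 0.66 with siATM and 0.20 with sip53. The 10 above became 2 with the gap of 0.1, and the 4 below became 2 with the gap of 0.1. The called counts were 2 without siNC replicate 1 or 2 for higher and 1 without siNC replicate 1 or 2 or sip53 replicate 1 for lower, and ACKR3 lost its call without siNC replicate 1 or 2 (adjusted p up to 0.081).

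Protease genes lay on both sides of the controls, and matrix genes of the common part above them. Of 24 proteases and inhibitors, 9 lay above (37.5%) and 4 below (16.7%) both controls on all 4 arrays, against 14.6% and 11.6% of all tested genes. The pooled contrast called 5 higher and 2 lower, and the median pooled difference over the list was −0.04. MMP1, interstitial collagenase, read 6.70 and 6.82 with siNC, 6.22 and 5.95 with siATM, and 6.01 and 5.83 with sip53, and the knockdown pairs overlapped in their range. The cell-surface sheddase ADAM17 was higher at 0.61 with siATM and 0.13 with sip53, and TFPI2, a Kunitz-type protease inhibitor, at 0.19 with siATM and 0.44 with sip53. Of 9 integrin and matrix genes tested, 4 lay above (44.4%) and 0 below both controls, and 5 were called higher and 1 lower, the lower call being lost with the replicate number as a block. LUM, the collagen-binding proteoglycan lumican, read 7.45 and 7.31 with siNC, 7.97 and 8.15 with siATM, and 7.86 and 7.89 with sip53, and FBN1, fibrillin, read 8.30 and 8.18 with siNC, 8.82 and 8.75 with siATM, and 8.85 and 8.78 with sip53. In LUM both siATM arrays were above both sip53 arrays, and siATM minus sip53 was 0.19 (−0.003 to 0.38). For FBN1 it was −0.03 (−0.18 to 0.13), and THBS1, thrombospondin, was at 0.26 with siATM and 0.23 with sip53. The 9 proteases above became 2 with the gap of 0.1 and 4 with median-centred arrays, and the 4 below became 1 with the gap of 0.1, 1 with the stricter filter and 7 without siNC replicate 2. Proteases called higher became 1 to 3 without any 1 array other than siATM replicate 2 and matrix genes 3 without siNC replicate 1 or 2 or sip53 replicate 1 or 2, and the calls were lost for ADAM17 without siNC replicate 1 (adjusted p up to 0.0782), TFPI2 without siNC replicate 1 or 2 (adjusted p up to 0.0708) and THBS1 without siNC replicate 1 or 2 or sip53 replicate 1 or 2 (adjusted p up to 0.135).

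MAPK feedback and immediate-early genes were mixed. Of 29 tested, 7 lay above (24.1%) and 5 below (17.2%) both controls on all 4 arrays, against 14.6% and 11.6% of all tested genes. The pooled contrast called 6 higher and 3 lower. The feedback inhibitor SPRY2 (0.58 with siATM and 0.20 with sip53) and the immediate-early gene IER5 (0.53 with siATM and 0.28 with sip53) were higher, and the ETS factors ETV4 (−0.86 with siATM and −0.09 with sip53) and ETV1 (−0.26 with siATM and −0.49 with sip53) lower. The 5 below became 2 with the gap of 0.1. The count called higher was 1 to 2 without siNC replicate 1 or 2, and IER5 lost its call without siNC replicate 1 or 2 (adjusted p up to 0.0557).

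In sterol metabolism the shared changes included regulators of the pathway. Of 21 sterol synthesis and control genes, 6 lay above (28.6%) and 3 below (14.3%) both controls on all 4 arrays, against 14.6% and 11.6% of all tested genes. The pooled contrast called 5 higher and 3 lower. INSIG2, which retains the sterol sensor in the endoplasmic reticulum, read 8.47 and 8.56 with siNC, 8.07 and 7.92 with siATM, and 7.81 and 7.69 with sip53. Its paralogue INSIG1 was also lower (−0.24 with siATM and −0.46 with sip53), as was the sterol carrier STARD4 (−0.63 with siATM and −0.27 with sip53), and MYLIP, the ligase that degrades the LDL receptor, was higher (0.49 with siATM and 0.28 with sip53). Of 32 fatty acid, phospholipid and ceramide enzymes, 5 lay above (15.6%) and 6 below both controls (18.8%), and 3 were called higher and 6 lower. LPGAT1, an acyltransferase of phosphatidylglycerol, was lower at −0.33 with siATM and −1.07 with sip53, the stearoyl desaturase SCD5 at −0.46 with siATM and −0.62 with sip53 and the elongase ELOVL7 at −0.57 with siATM and −0.28 with sip53, and the acyltransferase LPCAT3 was higher at 0.32 with siATM and 0.24 with sip53. The 6 sterol genes above became 2 with the gap of 0.1, and the 5 fatty acid genes above became 3 with the gap of 0.1, 9 without siNC replicate 2 and 8 without sip53 replicate 2. The sterol genes called higher became 1 to 3 without siNC replicate 1 or 2 or sip53 replicate 1 or 2, those of the fatty acid list 0 to 1 without any 1 array other than siATM replicate 2, and those called lower 3 without siNC replicate 1 or 2. Calls were lost for INSIG1 and MYLIP without siNC replicate 2 (adjusted p up to 0.0568 and 0.0645), STARD4 without siNC replicate 1 (adjusted p up to 0.0639), ELOVL7 without siNC replicate 1 or 2 or sip53 replicate 1 (adjusted p up to 0.128) and LPCAT3 without any 1 array other than siNC replicate 2 (adjusted p up to 0.194).

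Of 18 FOXO target genes, 3 lay above (16.7%, against 14.6% of all tested genes) and 0 below both controls on all 4 arrays. The pooled contrast called 5 higher and 0 lower (0 at an unadjusted p below 0.05, limma). The 3 became 1 with the gap of 0.1, 8 without siNC replicate 1 and 6 without sip53 replicate 1. The shared members were TXNIP, an inhibitor of glucose uptake (0.54 with siATM and 0.16 with sip53), the insulin receptor substrate IRS2 (0.18 with siATM and 0.27 with sip53) and BCL2L11, the BH3-only protein BIM (0.12 with siATM and 0.32 with sip53). Of 19 apoptosis regulators, 3 were called higher and 3 lower. In the common part, 3 lay above (15.8%) and 5 below (26.3%) both controls, against 14.6% and 11.6% of all tested genes. The 3 above became 1 with the gap of 0.1, 6 without siNC replicate 1 and 5 without siATM replicate 1, and the 5 below became 1 with the gap of 0.1. APAF1, the core of the apoptosome, read 8.48 and 8.38 with siNC, 7.47 and 7.32 with siATM, and 8.15 and 8.21 with sip53. BMF, another BH3-only protein, was higher at 0.24 with siATM and 0.74 with sip53, and the survival factor BCL2 lower at −0.47 with siATM and −0.16 with sip53. The FOXO count was 2 to 3 without siNC replicate 1 or 2 or sip53 replicate 1 or 2, and in the apoptosis list it was 1 without siNC replicate 1 or 2 or sip53 replicate 1 or 2 for higher and 1 without siNC replicate 1 or 2 or sip53 replicate 1 for lower. The calls were lost for TXNIP without siNC replicate 1 (adjusted p up to 0.0789), IRS2 without siNC replicate 1 or 2 or sip53 replicate 1 or 2 (adjusted p up to 0.166), BCL2L11 without any 1 array other than siATM replicate 2 (adjusted p up to 0.181) and BCL2 without siNC replicate 1 or 2 or sip53 replicate 1 or siATM replicate 2 (adjusted p up to 0.198).

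Luminal epithelial markers, which this mesenchymal-type line carries at varied levels, showed 6 of 9 tested members (66.7%) above both controls on all 4 knockdown arrays and 0 below. Of the 9, limma called 3 higher and 0 lower (0 at an unadjusted p below 0.05). The 3 were AGR2, GATA3, the luminal transcription factor (0.31 with siATM and 0.65 with sip53), and the keratin KRT7 (0.21 with siATM and 0.28 with sip53). The median over the list was 0.13, and the 6 became 3 with the gap of 0.1. Leaving out 1 array, the count was 1 without siNC replicate 1 or 2, and the calls were lost for GATA3 without siNC replicate 1 or 2 (adjusted p up to 0.0549) and KRT7 without siNC replicate 1 or 2 or sip53 replicate 1 or 2 (adjusted p up to 0.109). Of 7 mesenchymal markers, 1 lay above and 1 below both controls on all 4 arrays, and 1 was called.

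Of 13 genes of the immune checkpoint and antigen presentation list, 3 lay above and 3 below both controls (23.1% each). Over all tested genes the shares were 14.6% and 11.6%. The pooled contrast called 1 higher and 3 lower. PDCD1LG2, which encodes the checkpoint ligand PD-L2, read 8.83 and 8.91 with siNC, 7.66 and 7.50 with siATM, and 8.75 and 8.70 with sip53. Its sip53 arrays were just below the controls, and siATM minus sip53 was −1.15 (limma, adjusted p = 0.000231). The T cell costimulator ligand ICOSLG was lower at −0.20 with siATM and −0.44 with sip53, and MICA, a ligand of an activating natural killer receptor, higher at 0.32 with siATM and 0.44 with sip53. The 3 below became 1 with the gap of 0.1, and the calls were lost for ICOSLG without siNC replicate 1 or 2 or sip53 replicate 1 (adjusted p up to 0.127) and MICA without siNC replicate 2 (adjusted p up to 0.0962). Of 20 lysosome and autophagy genes, 4 lay above and 3 below both controls, and 2 were called in each direction, all with small differences: ATG12 at −0.22, ATG16L1 at −0.18, LAMP1 at 0.20 and CTSA at 0.18. The 3 below became 1 with the gap of 0.1 and 5 without siATM replicate 2. None of these 4 kept the call under every left-out array: ATG12 without any 1 array other than siATM replicate 1 (adjusted p up to 0.174) and ATG16L1, LAMP1 and CTSA without any 1 array (adjusted p up to 0.238, 0.202 and 0.21). ATG16L1 and CTSA also lost it with the replicate number as a block.

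**Figure D3:**
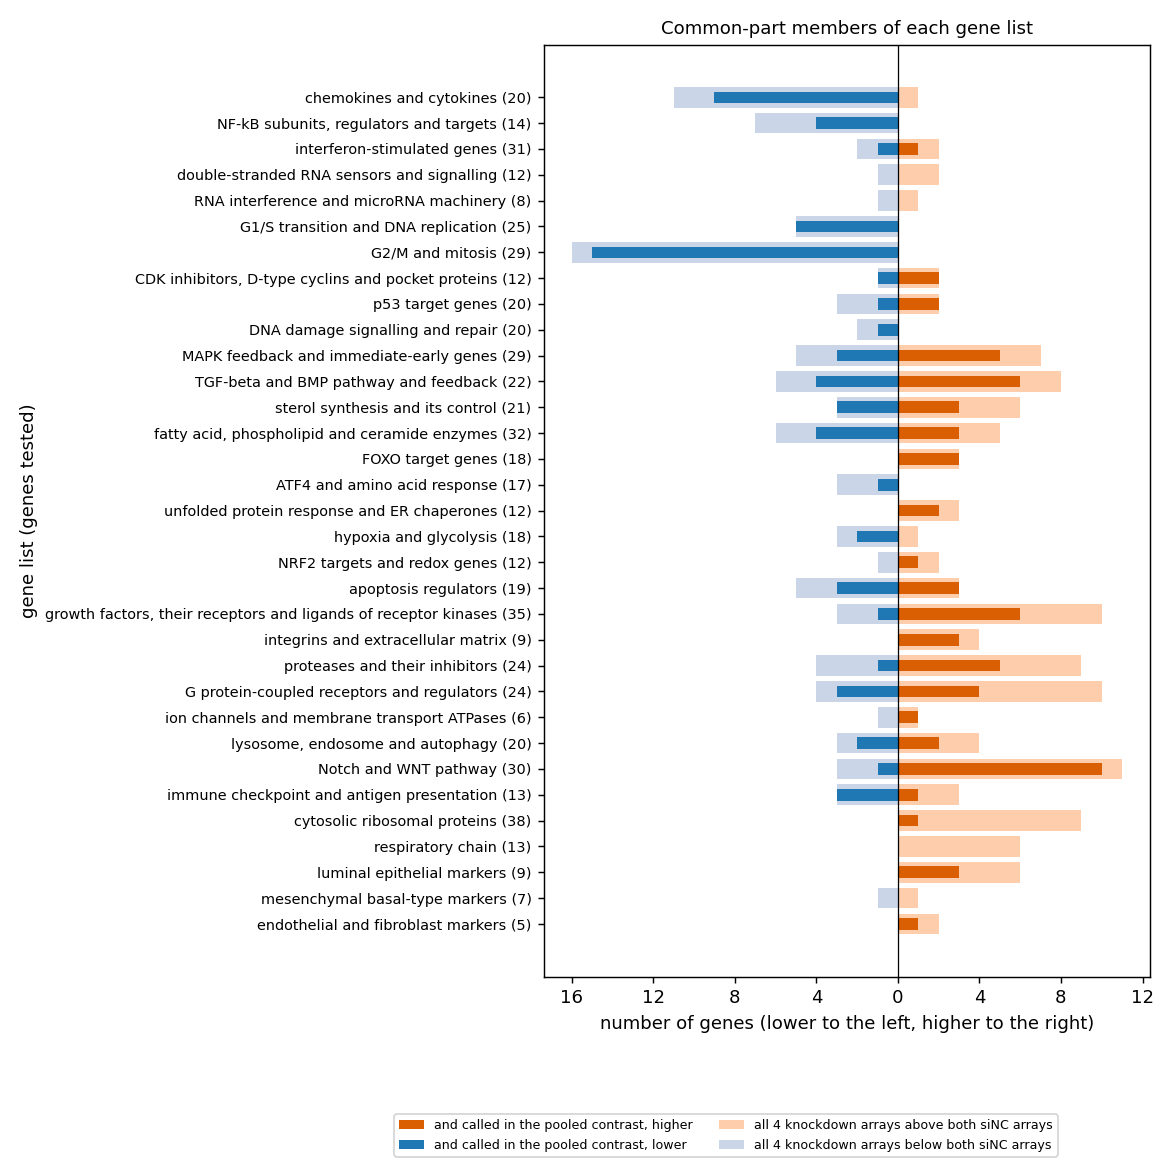
For each gene list, wide pale bars count tested genes whose 4 knockdown arrays all lie above (right, orange) or below (left, blue) both siNC arrays, and narrow dark bars count those also called in the pooled contrast; the number tested is in brackets. The longest bars to the left are the 16 G2/M genes and the 11 chemokines and cytokines, and the longest to the right the 11 Notch and WNT genes.

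MicroRNA genes were left out of the naming rule and are described here after their values were seen. Of 1072 microRNA symbols, 348 were tested, and 26 of these (7.47%) lay above and 30 (8.62%) below both controls on all 4 arrays, shares below the 14.6% and 11.6% of all tested genes. The pooled contrast called 10 higher and 10 lower (2.87% each, against 6.65% and 6.93%), of which 9 and 9 are in the common part. The probe sets read the precursor or its primary transcript, so a value says nothing of the mature strand. Mature sequences from RefSeq (GRCh38.p14) were read for 17 of the 18, as 26 arms. MIR4470 was not among those read, so the counts of arms and seeds below leave it out. The arms of the 4 genes that turn on near-equal values with both siRNAs and kept their call whichever array was left out, and of MIR23B, which neighbours MIR27B on chromosome 9, are shown 5′ to 3′ with the seed (bases 2 to 8) in capitals.
hsa-miR-27b-5p: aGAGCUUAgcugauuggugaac
hsa-miR-27b-3p: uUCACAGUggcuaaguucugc
hsa-miR-23b-5p: uGGGUUCCuggcaugcugauuu
hsa-miR-23b-3p: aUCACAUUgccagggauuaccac
hsa-miR-635: aCUUGGGCacugaaacaaugucc
hsa-miR-146a-5p: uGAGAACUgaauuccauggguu
hsa-miR-146a-3p: cCUCUGAAauucaguucuucag
hsa-miR-3198: gUGGAGUCcuggggaauggaga
They lie at chr9:95085463-95085484 and chr9:95085505-95085525 for MIR27B, chr9:95085227-95085248 and chr9:95085265-95085287 for MIR23B and chr5:160485372-160485393 and chr5:160485408-160485429 for MIR146A, all on the plus strand, and at chr17:68424511-68424533 for MIR635 and chr22:17764190-17764211 for MIR3198-1, both on the minus strand. No seed is shared among these 8 arms. Among all 26 there were 25 seeds, the shared 1 being that of these arms of MIR181B1 and MIR4262.
hsa-miR-181b-5p: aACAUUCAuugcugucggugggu
hsa-miR-4262: gACAUUCAgacuaccug

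MIR27B read 8.57 and 8.46 with siNC, 9.23 and 9.29 with siATM, and 9.20 and 9.29 with sip53, a pooled difference of 0.74 (SE 0.06). Its siATM and sip53 arrays overlapped, and siATM minus sip53 was 0.01 (−0.14 to 0.17). MIR23B was higher at 0.29 with siATM and 0.42 with sip53 and MIR635 at 0.52 with siATM and 0.45 with sip53. MIR146A, a microRNA gene known to be induced by NF-kB and to restrain it, read 7.60 and 7.30 with siNC, 6.61 and 6.44 with siATM, and 6.74 and 6.67 with sip53, which is lower on all 4 arrays by a pooled 0.83 (SE 0.09). MIR3198-1 was lower at −0.83 with siATM and −0.82 with sip53. MIR181B1 and MIR4262 were higher by 0.26 and 0.22. Calls were lost for MIR23B without siNC replicate 1 or 2 or siATM replicate 1 (adjusted p up to 0.151), MIR181B1 without any 1 array other than siATM replicate 2 (adjusted p up to 0.216) and MIR4262 without any 1 array (adjusted p up to 0.251).

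**Figure D4:**
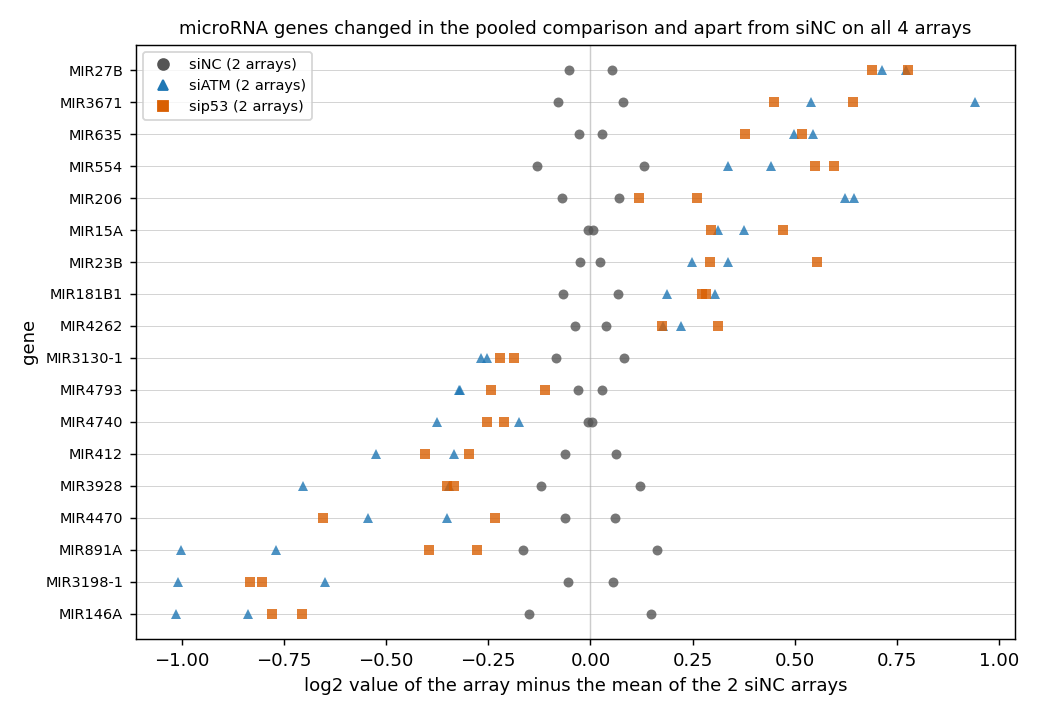
Log2 values of the 18 called microRNA genes of the common part, each array as 1 point relative to the mean of the 2 siNC arrays (grey circles), with siATM arrays as blue triangles and sip53 arrays as orange squares. MIR27B and MIR635 sit above and MIR146A and MIR3198-1 below the controls on all 4 knockdown arrays, with gaps between the nearest knockdown and siNC arrays of 0.64, 0.35, 0.56 and 0.59.

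The common part has a counterpart in genes that moved in opposite directions. In 697 tested genes both siATM arrays were above and both sip53 arrays below the controls, and in 904 the reverse held. CD14, the lipopolysaccharide co-receptor, was the largest of the first kind, with 8.35 and 8.33 for siNC, 9.57 and 9.49 for siATM and 7.72 and 7.41 for sip53. MBOAT1, a membrane-bound acyltransferase, was the largest of the second and read 9.18 and 9.16 with siNC, 7.58 and 7.43 with siATM, and 9.65 and 9.62 with sip53. For such genes the pooled difference is an average of opposing values, 0.21 for CD14 and −0.60 for MBOAT1, and describes neither siRNA. CD14 and the other 2 tested markers of blood cells, CD68 and LYZ, all had this pattern of siATM above and sip53 below siNC, so none is in the common part.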

How the data were processed

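Data of 6 Affymetrix Human Gene 2.0 ST arrays were used, 2 each for siNC, siATM and sip53. Per the deposited table the values are log2, 1 per probe set and array. The background correction and normalization by the authors are not given in the sources used here. Of 53617 probe sets, 16098 had 1 symbol in GEO's platform annotation, 0 had several and 37519 were unnamed here. For each of 14884 symbols the probe set with the highest mean was used (779 had several). Genes with a mean log2 of at least 5.96, the median over probe sets, were tested. Group means were fitted with limma (version 3.58.1, R 4.3.3) with 3 residual degrees of freedom. P-values are two-sided and adjusted by Benjamini and Hochberg over 10640 genes, with 0.05 as the threshold. SE is the moderated standard error. Fold sizes are computed from log2 differences. The procedure was tested on simulated data. Scanner files were not used here, so batch was not tested, and precision is limited by having 6 arrays.

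The members and the gene lists were chosen with earlier results of these data known. Genes were named by a rule: the 15 highest and 15 lowest pooled differences among called genes of the common part, up to 4 from each list with at least 3 such genes, and 4 in each direction for the largest siATM minus sip53 difference within the common part and among genes with opposite directions. Left out by prefix were MIR, LOC and LINC symbols and those of small RNAs (SNOR, RNU, SCARNA, RNA5S, RNY), and symbols holding -IT or -AS. Pseudogenes can pass that rule. Near-identical genes share probe sequence and are uncertain. Alternatives were other filters, probe set choices, scalings, variance models, a replicate block, the knockdown arrays as 1 group, a minimum gap and leaving out each array.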

Additional observations from a re-analysis of the deposited data

Results flagged for a closer look

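The effects of the 2 siRNAs against the same controls differed for 63 of the 102 named genes by the direct test of siATM against sip53 (limma, adjusted p below 0.05, adjusted over 10640 genes). Values are log2 differences, siATM minus sip53. Among genes with all 4 knockdown arrays above both controls, siATM was above sip53 in DSEL 1.28, TSPAN8 1.06, KITLG 1.01, DPP4 0.90, AGR2 0.82, LGR4 0.78, OLFML3 0.72, BAMBI 0.66, ADAM28 0.53, ADAM17 0.48, SMAD6 0.48, ACKR3 0.46, SPRY2 0.38, TXNIP 0.37, BBC3 0.34, IER5 0.25 and MYLIP 0.22, and below it in BCL2L11 −0.20, ADGRL2 −0.21, TFPI2 −0.25, GATA3 −0.34, ASIC1 −0.39, LFNG −0.46 and BMF −0.50. Among genes with all 4 knockdown arrays below both controls, siATM was above sip53 in KYNU 1.03, ADGRG1 0.80, LPGAT1 0.74, ICAM1 0.69, CXCL10 0.59, CHI3L2 0.53, CXCL8 0.48, ETV1 0.23, ICOSLG 0.23 and INSIG1 0.22, and below it in ATG16L1 −0.19, E2F1 −0.23, BCL2 −0.31, RBL1 −0.32, GINS3 −0.34, STARD4 −0.35, CRLF2 −0.39, CD82 −0.44, TYMS −0.52, LAPTM5 −0.52, HNRNPA1P33 −0.71, ETV4 −0.76, APAF1 −0.78, ANXA8L1 −0.80, PTTG1 −0.85, ANXA8 −0.86, NEK2 −1.004, CRISPLD2 −1.06, GPR3 −1.11, CHRDL1 −1.11 and PDCD1LG2 −1.15. Among genes outside the common part, the differences were CD14 1.97, LRRC15 1.40, SELPLG 1.35, SESN3 1.30, POLR3G −1.26, PUDP −1.29, GPR137C −1.56 and MBOAT1 −2.13. For the common higher genes a positive value means that siATM moved the gene farther from siNC, and for the common lower genes a negative one does. With 2 arrays in each group no array could be examined as an outlier.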

How the results depend on the processing

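All of the 102 named genes other than POLR3G kept the sign of their pooled difference under the alternatives run. POLR3G, which lies outside the common part and was not called, ran from −0.07 to 0.07 with a main value of 0.003. The filter on dim genes, the variance model and the arrays decided the counts. Without the filter the pooled contrast called 677 genes (310 higher and 367 lower), and 384 members of the common part differed between siATM and sip53, against 587 with it. A variance trend with robust moderation called 2186, 1119 of them higher, and the knockdown arrays fitted as 1 group gave 11 (7 higher and 4 lower). Called list members also fell without it, for lower genes from 10 to 5 in chemokines and cytokines (5 too with the stricter filter), 5 to 2 in NF-kB, 8 to 4 in interferon-stimulated, 13 to 7 in replication, 6 to 3 in fatty acid and 4 to 1 in hypoxia genes, and for higher genes from 5 to 2 in sterol, 5 to 3 in FOXO, 5 to 3 in matrix and 5 to 3 in protease genes. Requiring a gap of 0.1 on the log2 scale left 507 common genes higher, 413 lower and 238 that differed. Leaving out each array in turn gave 341 to 1382 called genes, 154 to 694 higher and 187 to 732 lower, 1814 to 2495 common genes higher and 1452 to 2094 lower, and 332 to 709 that differed. The lowest pooled counts came without siNC replicate 1. The deviations of same-numbered arrays correlated at 0.028 to 0.117 over genes, and 1 pair alone passed 0.1. Whether arrays with the same replicate number share a culture or a batch was not tested. A replicate block called 1363 genes, 1278 of them shared with the fit without it, and RBL2, CCND3, ATG16L1 and CTSA lost their call. Of the 102 named genes, 90 lost their call with the knockdown arrays as 1 group, 19 without the filter, 5 with median-centred arrays, 2 with quantile normalization and 1 with the lowest probe set of a gene. With 2 arrays in each group, differences that are small against the spread between arrays were not detectable.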

Other observations

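Lists of housekeeping and stress functions were counted as well. Of 38 cytosolic ribosomal protein genes tested, 9 (23.7% against 14.6% of all tested genes) lay above both controls on all 4 knockdown arrays and 0 below, and the 9 became 1 with the gap of 0.1, 4 with median-centred arrays and 18 without siNC replicate 1. Of the 38, 2 were called, both higher, and neither with the replicate number as a block. RPL31 was the 1 called member in the common part (0.37 with siATM and 0.29 with sip53). Of 13 respiratory chain genes, 6 (46.2%) lay above both controls, which became 1 with the gap of 0.1, and 0 below, and limma called 0 (3 higher and 0 lower at an unadjusted p below 0.05), with a list median of 0.09 on the log2 scale. Of 12 unfolded protein response genes, 3 lay above both controls (1 with the gap of 0.1) and 0 below, and the sensor kinases ERN1 (0.36 with siATM and 0.39 with sip53) and EIF2AK3 (0.36 with siATM and 0.14 with sip53) were called higher. Of 17 genes of the amino acid response, 3 lay below both controls (1 with the gap of 0.1, 5 with median-centred arrays, 7 without siNC replicate 1, 5 without siATM replicate 2 and 5 without sip53 replicate 2) and 3 were called lower, of which asparagine synthetase, ASNS (−0.55 with siATM and −0.44 with sip53), lay in the common part, and the count of 3 became 0 to 1 without siNC replicate 1 or 2 or sip53 replicate 1.

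The machinery that an siRNA itself engages was also counted. Of 8 genes of RNA interference and microRNA processing, 1 lay above and 1 below both controls on all 4 arrays, and limma called 0 (1 higher and 1 lower at an unadjusted p below 0.05). Of 12 genes of double-stranded RNA sensing, 2 lay above and 1 below, and limma called 0 (2 and 1). In hypoxia and glycolysis, 18 genes tested, 1 was called higher and 4 lower (1 to 2 without any 1 array other than siATM replicate 1), 3 lay below both controls (5 without siNC replicate 1), and the hormone gene STC1 was the largest shared member (−0.40 with siATM and −0.95 with sip53). Genes in these paragraphs were chosen after their values were seen. Of those named, calls were lost for RPL31 without any 1 array other than siATM replicate 2 (adjusted p up to 0.251), ERN1 without siNC replicate 1 (adjusted p up to 0.0594), EIF2AK3 without any 1 array (adjusted p up to 0.218) and ASNS without siNC replicate 2 (adjusted p up to 0.0516).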
